A study of Drosophila melanogaster with 6 samples.

Results

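The late fraction of S phase was compared with the middle fraction in Kc cells to describe which stretches of the genome took up little label by late S and which were labelled mainly then. The comparison rests on 4 of the 6 libraries of the series, 2 of Late S and 2 of Mid S, and the 2 Early S libraries are used to show what came before. Of 55900 windows of 10 kb, spaced 2.5 kb apart, the 53434 with a value above 0 in at least 1 of the 6 libraries were compared. Kc is a female line of Drosophila melanogaster derived from embryos at a late stage, and its genotype is given as se/e for every library. Growing cells took up the thymidine analogue BrdU (50 µg/ml) for 1 hour. After ethanol fixation, propidium iodide marked the DNA content and flow cytometry separated fractions of S phase. DNA carrying BrdU was recovered with an antibody and sequenced (Repli-seq). All fractions come from the same wild-type line, with no treatment that differs between them. Apart from the replicate and an extraction number that each library has of its own, the stage at sorting is the only labelled difference. For Mid S replicate 1 the fraction was read from the title, because its source label leaves it out. The labels do not say whether the replicates were separate cultures. The p-values therefore reflect the spread between libraries alone, and that spread may be technical.

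A genome is copied from many origins that fire in a reproducible order during S phase, so each region has its own typical time of replication. In flies, gene-rich and transcribed regions tend to replicate early, while silent domains of the arms and the repeat-rich heterochromatin around the centromeres tend to replicate late. In Repli-seq a region carries label in a fraction when it was being copied in the cells of that fraction, and a region whose copying is complete takes up no more label.

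Each value is in RPKM, the reads of a window scaled to window length and to the size of its library. RPKM is a share of a library and not an absolute amount of new DNA. Recovered from the step of 1 read, the depth was 1856781 and 1384200 reads in Late S and 2801800 and 1981524 reads in Mid S. A median window held 124 and 98 reads in Late S and 218 and 153 reads in Mid S. A count of 0 allows up to 3 reads, or 0.162 and 0.217 RPKM in Late S and 0.107 and 0.151 RPKM in Mid S, a limit that covers counting error only. Differences are Late S minus Mid S on the log2(RPKM + 0.0341) scale, which understates the change of windows with few reads.

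Most windows differed between late and mid S, in both directions. Of all tested windows, 26.9% (14374) were called higher in Late S and 38.7% (20677) lower in Late S, by limma at a Benjamini-Hochberg adjusted p of 0.05. The smallest called difference was 0.34 on the log2 scale. Windows that were called and also differed at least 2-fold were about equally many in both directions, with 15.3% (8149) higher and 15.5% (8287) lower in Late S. The other 18383 windows, or 34.4%, were not called, and with this depth and 2 libraries a fraction no difference was detectable there. The median difference over all windows was -0.17, and small differences are to be read relative to it. Of the windows past 2-fold, 49.6% were higher in Late S, against 67.9% after each library was centred on its median. Without Late S replicate 1 the windows at least 2-fold lower numbered 5139, and without Mid S replicate 1 the windows called numbered 9290 higher and 13489 lower in Late S.

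The windows at least 2-fold higher in Late S had little label in Early S and an intermediate level in Mid S. Their median level was 1.63 and 1.48 RPKM in Early S, 4.25 and 4.74 RPKM in Mid S, and 13.0 and 11.8 RPKM in Late S. The level thus stepped up at each stage. The step from Mid S to Late S was set by the choice of windows. Early S took no part in that choice other than through the shared estimate of spread, and both its medians lay below both of Mid S. Early S was above Mid S in only 2.12% of these windows, against 36.4% of all tested windows. They made up 15.3% of tested windows and held 3.10% of the Early S label, 8.33% of the Mid S label and 22.5% of the Late S label.

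The windows at least 2-fold lower in Late S showed the opposite order, with the highest label in Early S and not in Mid S. Their median level was 14.1 and 14.6 RPKM in Early S, 8.53 and 8.48 RPKM in Mid S, and 3.07 and 4.05 RPKM in Late S. Early S did not enter this contrast other than through the shared estimate of spread. It was above Mid S in 93.7% of these windows (7769 of 8287), against 36.4% of all tested windows. Mid S was the highest fraction in the other 518 windows, or 6.25%, against 21.9% of all tested windows. Together these windows held 30.2% of the Early S label, 17.6% of the Mid S label and 7.56% of the Late S label. The 2 Late S libraries differed here, with replicate 2 above replicate 1 in 82.5% of these windows. That share was 37.7% of the windows at least 2-fold higher in Late S and 54.5% of all tested windows. The part of this replicate difference in the calls was not tested. Windows that were not called held about equal label in both fractions, with medians of 7.81 and 7.66 RPKM in Late S and 7.99 and 7.77 RPKM in Mid S. Their Early S level was lower, at 5.38 and 5.07 RPKM.

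**Figure D1:**
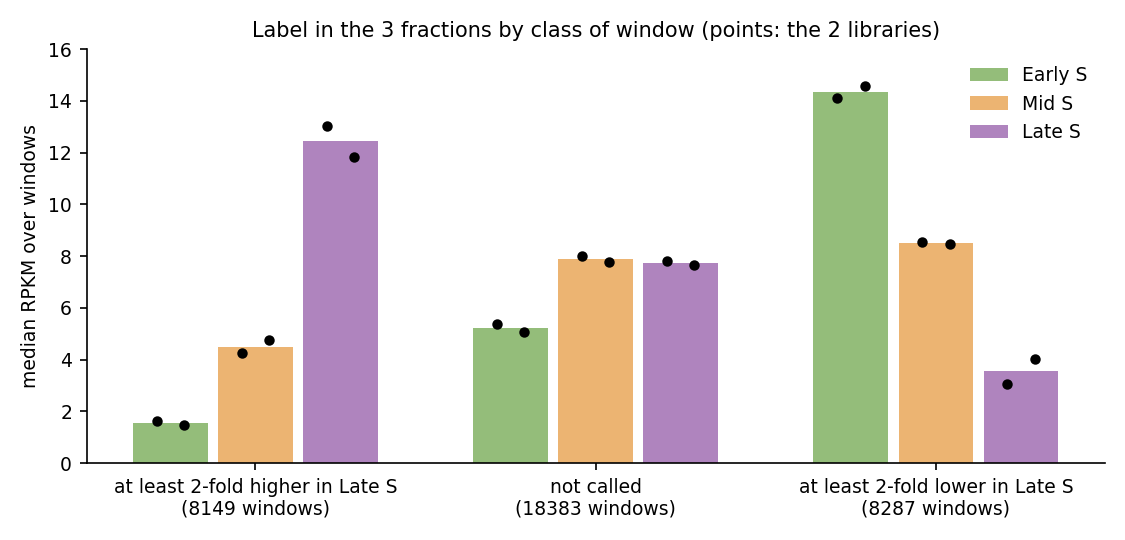
Median RPKM over the windows of each class in Early S, Mid S and Late S. Bars are the mean of 2 libraries and points are the libraries. In windows at least 2-fold higher in Late S the bars step up to 13.0 and 11.8 RPKM in Late S, and in windows at least 2-fold lower Early S is highest at 14.1 and 14.6 RPKM.

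Almost no window went from label to none between the fractions. Of 49105 windows with at least 20 reads in both Mid S libraries, 1 window, on 2R, had 3 reads or fewer in both Late S libraries. In the other direction no window of 49105 with at least 20 reads in both Late S libraries had 3 reads or fewer in both Mid S libraries. The lowest kept share shows how far the label fell. Among 41243 windows on the long arms and chromosome 4 with at least 100 reads in both Mid S libraries, the lowest Late S level was 18.3% of that in Mid S, on X at 6710001 to 6720000. That window held 1.13 and 1.23 RPKM in Late S (21 and 17 reads) and 7.32 and 5.60 RPKM in Mid S (205 and 111 reads). The Late S libraries were both far below both Mid S libraries, yet above the 3-read limit. The 1st percentile of this share was 33.6%. Conversely, among 24752 windows on the same sequences with at least 100 reads in both Late S libraries, the lowest Mid S level was 20.04% of that in Late S, on 2L at 18292501 to 18302500. That window held 17.6 and 16.8 RPKM in Late S and 3.71 and 3.18 RPKM in Mid S. These 2 windows were picked as the extremes of their sets, so their values are a description.

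The arms, chromosome 4 and the pericentric scaffolds divided differently. On the 5 long arms (2L, 2R, 3L, 3R and X) 12.2% of 47271 windows were at least 2-fold higher and 16.7% at least 2-fold lower in Late S. On the 5 pericentric scaffolds, assembled pieces of the heterochromatin beside the centromeres, 45.4% of 3055 windows were at least 2-fold higher and 3.67% lower in Late S. Both are to be read against 15.3% and 15.5% over all tested windows. Windows share reads with their neighbours and are not replicates, so no test was made on these shares. With 2 libraries against 2, an exact permutation test of a sequence's level cannot go below p = 0.333. What can be said is whether the libraries overlap, and in each of the 12 sequences described here both Late S libraries lay on one side of both Mid S libraries, once each library was set relative to its own median.

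**Figure D2:**
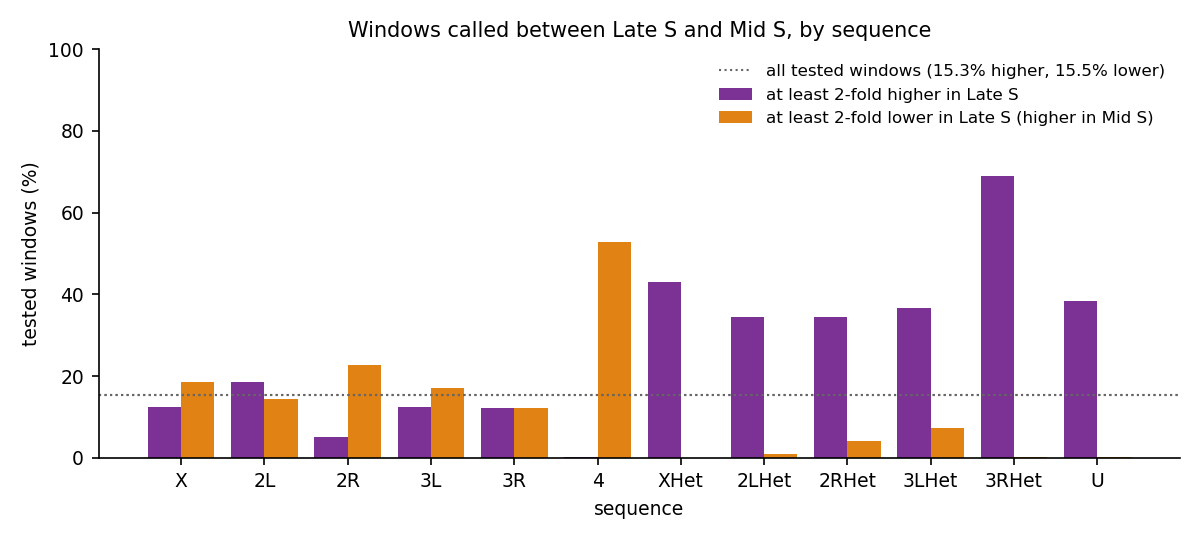
Share of tested windows of each sequence that were called and at least 2-fold higher (left bars) or at least 2-fold lower (right bars) in Late S than in Mid S. Dotted lines give the shares over all tested windows, 15.3% and 15.5%. The scaffolds and U stand high on the left bars, 3RHet most with 69.04%, and chromosome 4 on the right bar with 52.9%.

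Among the long arms 2L had the largest share of windows higher in Late S and 2R the smallest. On 2L 18.4% of windows were at least 2-fold higher and 14.4% lower in Late S, and on 2R these shares were 5.16% and 22.6%. X (12.3% and 18.6%), 3L (12.5% and 17.2%) and 3R (12.1% and 12.2%) lay between them. Without Late S replicate 1 the shares at least 2-fold lower were 13.5% on 2R, 12.25% on X, 11.4% on 3L, 8.35% on 2L and 7.48% on 3R. With libraries centred on their medians they were 13.4% on 2R, 11.7% on X, 10.2% on 3L, 8.04% on 2L and 6.02% on 3R. The shares at least 2-fold higher were then 7.69% on 2R, 15.7% on X, 17.1% on 3L, 22.2% on 2L and 15.6% on 3R. The share at least 2-fold higher on 2R was 8.705% after quantile normalization. Relative to the library median, the Late S minus Mid S difference of 2L was 0.22 ± 0.054 on the log2 scale and that of 2R was -0.21 ± 0.020 (error combined from the SD within each fraction, n = 2 each). The differences of X (-0.020 ± 0.018), 3L (0.055 ± 0.025) and 3R (0.10 ± 0.049) were small, and those of 3L and 3R turned negative, to -0.092 and -0.064, when means over windows replaced medians. The mean level on 2L was 8.74 and 8.63 RPKM in Late S and 7.76 and 7.85 RPKM in Mid S. On 2R it was 7.19 and 7.18 RPKM in Late S and 8.72 and 8.51 RPKM in Mid S.

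Chromosome 4, a small chromosome rich in repeats and in marks of heterochromatin, had the lowest ratio of Late S to Mid S label of the 12 sequences. Its mean level was 3.29 and 4.95 RPKM in Late S and 7.16 and 8.42 RPKM in Mid S, a ratio of 0.529. Both Late S libraries were below both Mid S libraries, but the 2 Late S libraries also stood apart from each other. Early S was the highest fraction, at 10.9 and 10.7 RPKM. On chromosome 4, 84.6% of 514 windows were called lower in Late S, 52.9% were at least 2-fold lower and 1 window was at least 2-fold higher. Both shares depended on single libraries. The share called lower was 34.8% without Mid S replicate 2, and the share past 2-fold was 16.7% without Late S replicate 1 and 24.1% without Mid S replicate 2. Relative to the library median the difference was -0.92 ± 0.43 (n = 2 each). The single window in the other direction lay at 1282501 to 1292500, with 1.40 and 1.30 RPKM in Late S and 0.357 and 0.707 RPKM in Mid S.

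The pericentric scaffolds gained label in late S, and 3RHet most of all. The mean level of 3RHet was 4.44 and 4.80 RPKM in Late S and 1.49 and 1.82 RPKM in Mid S, a ratio of 2.79. Its Early S libraries were lower again, at 1.04 and 0.929 RPKM, and no libraries of different fractions overlapped. Of its 898 windows, 69.04% were at least 2-fold higher in Late S and 2 windows were at least 2-fold lower. This share was 48.9% without Mid S replicate 1, the lowest when 1 library was left out.

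The other scaffolds moved the same way by less. XHet held 7.26 and 8.09 RPKM in Late S and 4.14 and 4.74 RPKM in Mid S. 3LHet held 3.88 and 4.30 RPKM in Late S and 2.36 and 2.70 RPKM in Mid S. 2RHet held 2.77 and 3.07 RPKM in Late S and 1.90 and 2.09 RPKM in Mid S. 2LHet was lowest, with 2.15 and 2.25 RPKM in Late S and 1.44 and 1.52 RPKM in Mid S. In each of the 4 scaffolds both Late S libraries were above both Mid S libraries, and the ratio of the means ran from 1.46 on 2RHet to 1.73 on XHet. The share of windows at least 2-fold higher in Late S was 43.1% on XHet, 36.6% on 3LHet, 34.5% on 2LHet and 34.4% on 2RHet. These shares fell by over 1.5 times without Mid S replicate 1, to 13.8%, 19.1%, 16.8% and 18.2%, and without Late S replicate 2, to 18.5%, 21.96%, 20.2% and 18.5%. On 2LHet and XHet they also fell without Late S replicate 1, to 17.6% and 27.7%, and on 2LHet without Mid S replicate 2, to 22.7%.

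Fewer reads lay on the scaffolds than on the arms, and their depth moves with the result. The median window held 57.5 and 46 reads in Late S and 20 and 20 reads in Mid S on 3RHet, and 25 and 20 reads in Late S and 12 and 11 reads in Mid S on 2LHet. In a check added after the values were seen, only windows with at least 20 reads in both Mid S libraries were kept. The choice thus rests on the fraction that is low in windows higher in Late S and does not favour them. It left 49105 windows, of which 13.7% were at least 2-fold higher and 16.7% lower in Late S. The share at least 2-fold higher in Late S was 69.8% on 3RHet, 45.6% on 3LHet, 39.3% on 2RHet, 38.5% on XHet and 31.6% on 2LHet. It was thus close to or above that over all windows on 3RHet, 3LHet and 2RHet, and below it on XHet, with 52 windows left, and on 2LHet, with 38. On 2LHet the share rested on the choice of windows, since only 4.00% of the 25 windows whose mean signal passed the 10th percentile were at least 2-fold higher. How reads from repeats were placed is not given in the sources used here, and its part in these values was not tested.

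U, the collection of sequence not placed on a chromosome, also had more label in late S. Its mean level was 1.44 and 1.60 RPKM in Late S and 0.414 and 0.543 RPKM in Mid S, a ratio of 3.18. Early S held 0.267 and 0.238 RPKM. The Late S libraries lay above all others, but most windows of U held almost nothing: the median window had 6 and 4 reads in Late S and 2 and 2 reads in Mid S, which is below the 3-read limit in Mid S. Of 2570 windows 38.3% were at least 2-fold higher in Late S and 0.156% lower. The 364 windows with at least 20 reads in both Mid S libraries gave 76.1% and 0%. The share over all windows was 23.5% after quantile normalization and 23.9% without Mid S replicate 1.

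**Figure D3:**
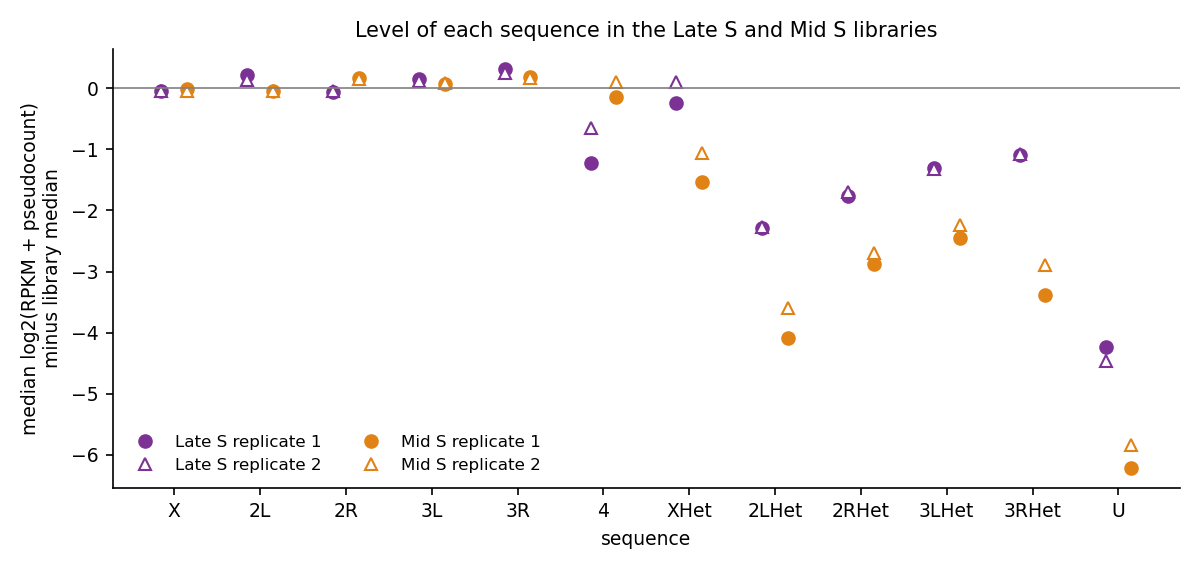
Median log2 level of each sequence relative to the median of its library, one point per library, with Late S left of Mid S in each pair. Both Late S points lie above both Mid S points on the scaffolds and U, and both lie below them on chromosome 4, where the Late S points are at -1.22 and -0.66.

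Windows that differed at least 2-fold formed domains, runs of such windows in which gaps of up to 2 windows were bridged. The 5 long arms held 250 domains higher in Late S, called Late S domains here, and 704 domains lower in Late S, called late-depleted domains. Late S domains covered 16.7 Mb or 14.0% of these arms, with a median length of 27.5 kb. Late-depleted domains covered 26.4 Mb or 22.2%, with a median length of 20 kb. A larger part of the Late S domains lay in long runs: 60 domains of at least 100 kb made up 11.3 Mb of the 16.7 Mb. Only 8.11 Mb of the 26.4 Mb of late-depleted domains lay in runs of that length, 54 of them. By arm, Late S domains covered 20.1% of 2L, 14.8% of 3L, 14.2% of X, 13.9% of 3R and 6.44% of 2R. Late-depleted domains covered 28.9% of 2R, 23.9% of X, 22.9% of 3L, 19.9% of 2L and 17.0% of 3R. Domain counts and lengths follow from the thresholds, and domains are built from called windows, so their differences are given with no test.

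The longest Late S domain lay on 2L at 17525001 to 17990000, 465 kb. It held 16.7 and 16.2 RPKM in Late S and 4.49 and 5.33 RPKM in Mid S, a mean difference of 1.76. Early S was lower still, at 2.00 and 1.73 RPKM. Both Early S libraries lay below both Mid S libraries, and all 183 windows of the domain were called. Further along the same arm lay domains of 380 kb at 16935001 to 17315000 (difference 1.69) and 352.5 kb at 15307501 to 15660000 (1.57). Another at 14710001 to 14977500, 267.5 kb, was among the 5 with the largest difference (1.71), with 15.9 and 15.2 RPKM in Late S and 4.58 and 5.09 RPKM in Mid S. The second longest was on 3R at 1705001 to 2132500, 427.5 kb, with 15.9 and 15.2 RPKM in Late S and 4.96 and 5.98 RPKM in Mid S (difference 1.52). All these domains on 2L and 3R therefore held about the same level in Late S.

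The fifth longest Late S domain, on X at 11972501 to 12297500, was lower in every fraction. It held 0.779 and 0.694 RPKM in Early S, 2.05 and 2.38 RPKM in Mid S, and 7.37 and 6.79 RPKM in Late S. Its difference of 1.68 was nevertheless close to those of the 2L domains. Level and difference are thus separate properties of a domain here.

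The remaining Late S domains with the largest differences lay near the centromeric ends of X and 3L and had lower levels. On 3L the domain at 24170001 to 24450000 held 4.78 and 5.17 RPKM in Late S and 1.18 and 1.58 RPKM in Mid S (difference 1.82), with 100 of its 106 windows called. On X the short domain at 21662501 to 21692500 held 4.14 and 5.45 RPKM in Late S and 1.03 and 1.59 RPKM in Mid S (2.05). Its difference was 1.24 with 10 times the pseudocount and 2.46 with a smaller pseudocount. Its neighbour at 21637501 to 21662500 held 1.47 and 1.34 RPKM in Late S and 0.306 and 0.404 RPKM in Mid S (1.85). The difference of this neighbour was 1.14 after quantile normalization and 1.27 with 10 times the pseudocount. Early S did not separate from Mid S in these 2 domains on X.

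The 5 longest late-depleted domains outside 2R were highest in Early S. The longest of them outside 2R lay on 2L at 10200001 to 10440000, 240 kb. It held 3.75 and 5.92 RPKM in Late S and 11.6 and 12.2 RPKM in Mid S, a mean difference of -1.34. Early S held 19.3 and 18.7 RPKM, so the level stepped down at each stage, with both Early S libraries above both Mid S libraries. Near the telomeric end of 3L lay domains of 225 kb at 107501 to 332500 (difference -1.36) and 222.5 kb at 647501 to 870000 (-1.37). The second of these held 15.6 and 17.7 RPKM in Early S, 5.89 and 5.70 RPKM in Mid S, and 2.10 and 2.46 RPKM in Late S. Mid S was thus already far below Early S there. A domain of 197.5 kb lay on 3L at 21182501 to 21380000 (-1.25). Chromosome 4 held one of 195 kb at 432501 to 627500 (-1.22), with 2.88 and 4.82 RPKM in Late S and 8.02 and 9.35 RPKM in Mid S.

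The largest falls were smaller in size than the largest gains. The domain at 12501 to 80000 near the telomeric end of X held 1.51 and 2.59 RPKM in Late S and 5.45 and 6.51 RPKM in Mid S, a difference of -1.62. On 3L the domain at 8560001 to 8670000 held 1.72 and 2.22 RPKM in Late S and 5.55 and 5.25 RPKM in Mid S (-1.53). The next were 2L at 5305001 to 5362500 (-1.52), X at 11647501 to 11755000 (-1.48) and X at 5722501 to 5767500 (-1.48). In each of these 5 domains both Early S libraries were above both Mid S libraries. That Late S lay below Mid S was set by the choice of domains.

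The order of the 3 fractions was checked in every domain of the long arms with libraries that did not overlap. In 242 of 250 Late S domains both Early S libraries were below both Mid S libraries, and in 2 they were above. In 563 of 704 late-depleted domains both Early S libraries were above both Mid S libraries, in 50 they were below, and in 91 they overlapped. The exceptions were mostly short. Early S was above Mid S in 68.2% of the 381 late-depleted domains under 25 kb, in 87.8% of the 156 domains from 25 to 50 kb and in 99.1% of the 113 from 50 to 100 kb. All 54 domains of at least 100 kb had Early S above Mid S. Outside 2R, the longest of the 50 domains lay on 2L at 21207501 to 21245000 and is named after its values were seen. It held 12.4 and 11.5 RPKM in Early S, 13.4 and 12.7 RPKM in Mid S and 5.26 and 7.21 RPKM in Late S.

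Longer domains differed more between the fractions. The median difference of Late S domains was 1.06 in those under 25 kb and 1.52 in those of at least 200 kb. The Late S level changed little over this range, from 13.4 and 11.8 RPKM in the shortest to 14.7 and 13.8 RPKM in the longest. The Mid S level was 6.02 and 6.09 RPKM in the shortest and 4.83 and 5.32 RPKM in the longest. The median difference of late-depleted domains was -1.07 in those under 25 kb and -1.34 in the 5 of at least 200 kb, while their Early S level was 11.5 and 11.9 RPKM in the shortest and 19.3 and 18.7 RPKM in the longest. A domain's length and difference both follow from the same calls, so this is a description.

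Profiles around the centres of long domains showed which fraction changed along the chromosome. Around the centres of 34 Late S domains of at least 150 kb, the mean level at the centre was 14.8 and 13.7 RPKM in Late S and 4.34 and 4.87 RPKM in Mid S. At 300 kb to the left these were 9.23 and 9.16 RPKM in Late S and 9.04 and 9.12 RPKM in Mid S. Late S thus peaked and Mid S dipped over the same stretch, and Early S dipped further, to 1.73 and 1.57 RPKM at the centre. Around the centres of 54 late-depleted domains of at least 100 kb the level was 2.79 and 3.81 RPKM in Late S and 8.24 and 8.10 RPKM in Mid S. At 300 kb to the left these were 7.51 and 7.76 RPKM in Late S and 8.28 and 8.27 RPKM in Mid S. Here Mid S was nearly level around the centre, while Late S dipped and Early S peaked at 16.2 and 17.0 RPKM. At 150 kb to the right Mid S reached 9.89 and 9.58 RPKM. The windows at the centre were chosen by the Late S to Mid S contrast, so the shape of these 2 profiles is a description, and Early S is the fraction that the choice did not use.

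**Figure D4:**
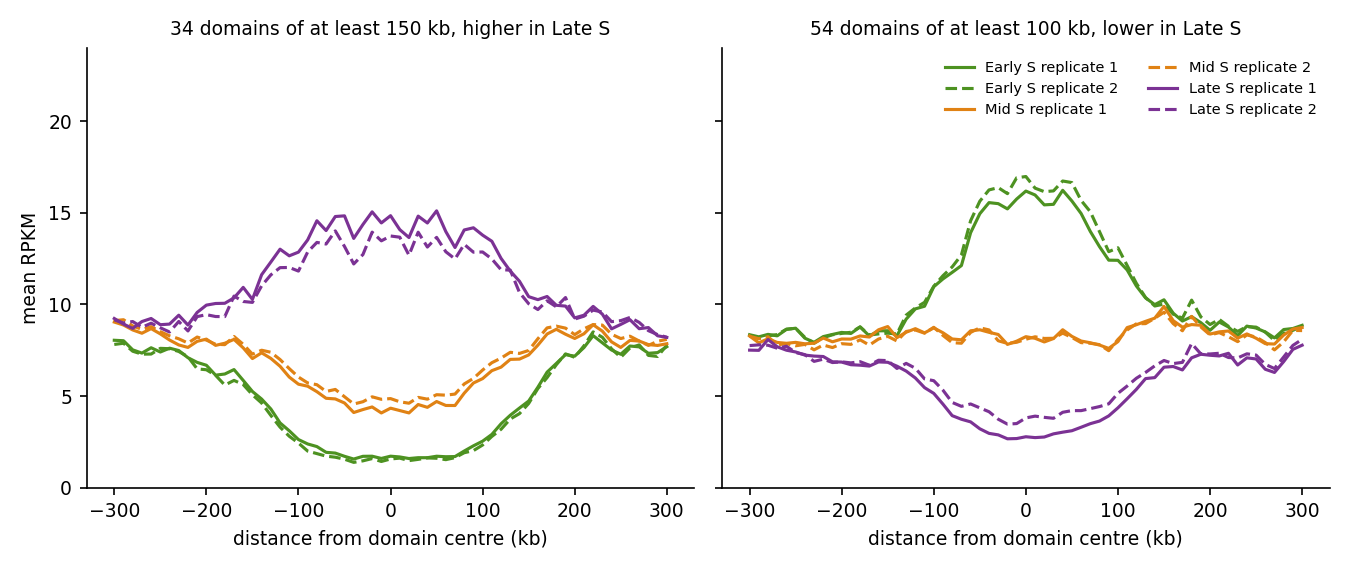
Mean RPKM of each library against the distance from the domain centre in kb, for 34 domains of at least 150 kb higher in Late S (left) and 54 domains of at least 100 kb lower in Late S (right). Left, Late S rises to 14.8 and 13.7 RPKM at the centre while Mid S and Early S dip. Right, Late S dips to 2.79 and 3.81 RPKM and Early S peaks. Mid S stays near 8 RPKM around the centre and reaches 9.89 and 9.58 RPKM at 150 kb to the right.

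The distance between Late S domains and late-depleted domains of the long arms varied widely. From the 60 Late S domains of at least 100 kb, the nearest late-depleted domain was at a median distance of 120 kb (50 to 835 kb), and in 21 of them it was within 100 kb. From the 54 late-depleted domains of that length, the nearest Late S domain was at a median of 316 kb, and within 100 kb in 5. The long arms held 704 late-depleted but 250 Late S domains, and the part of these numbers in the 2 distances was not tested. There were also long stretches with domains of only one kind, picked out after the values were seen. On 2L no window was at least 2-fold higher in Late S over 3.83 Mb, from 6277501 to 10102500, where 22.6% of windows were at least 2-fold lower. On the same arm no window was at least 2-fold lower over 2.41 Mb, from 13875001 to 16282500, where 44.9% were at least 2-fold higher. The median levels of that second stretch were 13.2 and 12.7 RPKM in Late S and 7.21 and 7.42 RPKM in Mid S.

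The ends of the arms were set apart, in a division chosen after the values were seen. In the 0.5 Mb nearest the telomeric ends of the 5 long arms, 0.107% of 937 windows were at least 2-fold higher and 37.6% at least 2-fold lower in Late S. The second share ran from 19.3% on X to 50.0% on 2L. Between 0.5 and 1 Mb it was 54.0% on 3L, while on 2L 25% of windows at that distance were at least 2-fold higher. The median level in the outermost 0.5 Mb was 9.84 and 9.56 RPKM in Early S, 8.57 and 8.23 RPKM in Mid S, and 4.52 and 5.20 RPKM in Late S. Both Late S libraries were therefore below both Mid S libraries there.

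The centromeric ends did not move together. In the 0.5 Mb nearest the centromeric end, 70.6% of windows on 3L and 51.3% on X were at least 2-fold higher in Late S, and none was on 2L, 2R or 3R. On 3L the median level of these windows was 4.01 and 4.01 RPKM in Late S and 1.12 and 1.44 RPKM in Mid S. On X it was 11.7 and 11.5 RPKM in Late S and 6.10 and 6.51 RPKM in Mid S. On 2R, 41.9% of the innermost windows were instead at least 2-fold lower in Late S, with 1.72 and 2.46 RPKM in Late S and 3.35 and 3.58 RPKM in Mid S. On 2L the largest share lay further out, with 46.4% of windows at least 2-fold higher between 4 and 8 Mb from the centromeric end. Between 1 and 2 Mb it was 20.4% on 2L. On 3R the share was 29.0% between 1 and 2 Mb and 35.8% between 2 and 4 Mb.

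**Figure D5:**
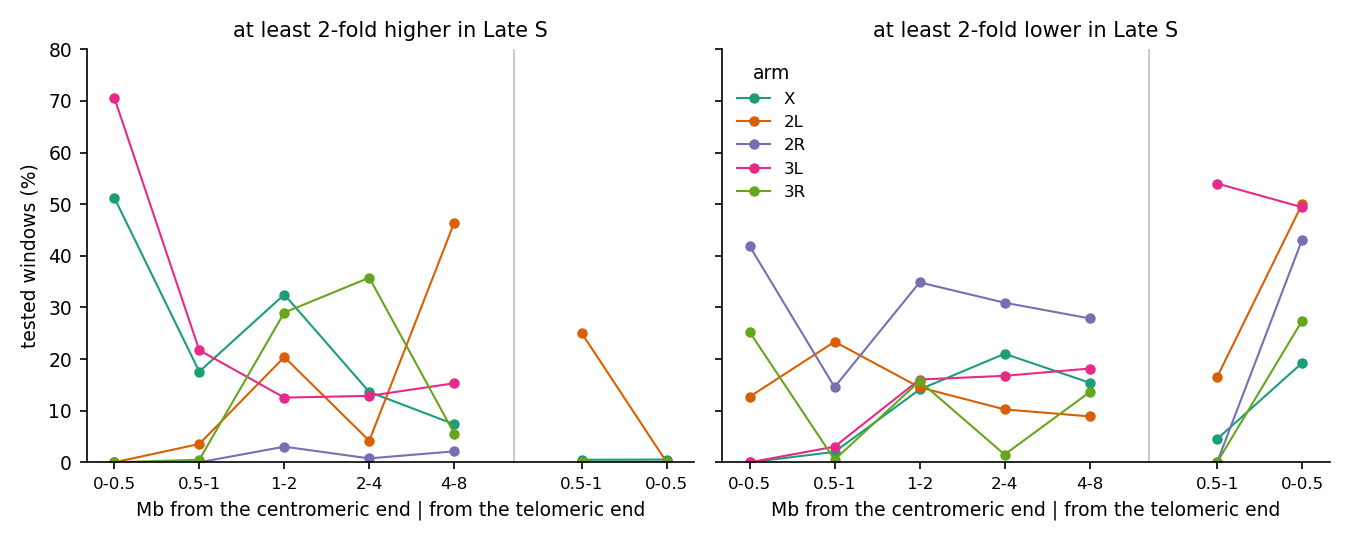
Share of tested windows at least 2-fold higher (left) or lower (right) in Late S than in Mid S, by distance in Mb from the centromeric and the telomeric end of each long arm. At the centromeric end 3L reaches 70.6% on the left panel and X 51.3%, while 2L, 2R and 3R are at 0%. In the outermost 0.5 Mb at the telomeric end no arm is above 0.535% on the left panel.

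Domains on the scaffolds repeated both kinds, with the late kind far in the lead. The 5 pericentric scaffolds held 98 Late S domains covering 4.40 Mb or 49.0% of their length, and 20 late-depleted domains covering 0.448 Mb or 4.99%. On 3RHet 28 Late S domains covered 72.4% of the length. The longest lay at 522501 to 787500, 265 kb, with 6.60 and 7.57 RPKM in Late S and 1.24 and 1.78 RPKM in Mid S, a difference of 2.22. Early S held 0.781 and 0.712 RPKM, so the level again stepped up at each stage, with both Early S libraries below both Mid S libraries. This difference exceeded that of every long-arm domain of at least 5 windows outside 2R. The ranking depended on the pseudocount. With a smaller one the difference was 2.28 here and 2.46 in the domain on X at 21662501 to 21692500. The longest Late S domains of the other scaffolds were 145 kb on 3LHet at 705001 to 850000 (difference 1.37), 72.5 kb on 2LHet at 235001 to 307500 (1.61) and 62.5 kb on XHet at 142501 to 205000 (1.42). With 10 times the pseudocount these differences were 1.17 on 3LHet, 1.16 on 2LHet and 1.05 on XHet.

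Some scaffold sequence did not gain label from Mid S to Late S. On 3LHet the late-depleted domain at 2377501 to 2432500, 55 kb, held 2.64 and 4.36 RPKM in Late S and 7.64 and 9.50 RPKM in Mid S (difference -1.34). Its Early S level was 12.5 and 12.4 RPKM, above both Mid S libraries as in most late-depleted domains of the arms. On 3RHet the stretch from 1635001 to 1955000, 0.32 Mb, was the longest without a window at least 2-fold higher in Late S. It was picked out after the values were seen. Its median level was 2.33 and 2.19 RPKM in Early S, 2.89 and 3.10 RPKM in Mid S, and 2.91 and 3.07 RPKM in Late S. The Mid S and Late S libraries overlapped, so its label was not seen to fall by Late S. Within this stretch lay the only late-depleted domain of 3RHet, at 1780001 to 1792500, with 0.700 and 1.73 RPKM in Late S and 2.09 and 3.00 RPKM in Mid S (-1.16). That difference was -0.53 without Late S replicate 1 and -1.79 without Late S replicate 2. On 2LHet the only late-depleted domain was a single window at 50001 to 60000, where Late S held 0.0539 and 0 RPKM and Mid S 0.178 and 0.202 RPKM, a matter of a few reads. XHet had none.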

How the data were processed

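The authors deposited RPKM per window of 10 kb for each library, per the file headers, and 3 combined files that were not used here. The sources used here do not name the aligner, genome build, read filters or any input correction. Sequence names follow the style of Release 5 of the fly genome, coordinates are as in the files, counted from 1, and no gene or base sequence was read. In windows of full width, 100% of values were whole multiples of 1 read within 0.02 reads, which gave the reads behind each value.

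The 2466 windows without a read in any library were dropped. limma 3.58.1 in R 4.3.3 (lmFit, eBayes with trend) was fitted to log2(RPKM + 0.0341), the pseudocount being the lowest value above 0, over all 6 libraries, with 3 residual degrees of freedom and a prior worth 10.7. A window was called when its two-sided p, adjusted by Benjamini-Hochberg, passed 0.05. The fit and the domain caller were tested on simulated data. Same-numbered libraries were not taken as pairs, since only 2 numbers exist and their deviations correlated at 0.21 between Late S and Mid S, 0.024 between Late S and Early S and -0.031 between Mid S and Early S. Alternatives were the scaling, the pseudocount, a filter on low values, thinning to equal depth, windows that do not overlap, the replicate block, leaving out each library, and other domain rules. Named domains are, in each direction, the 5 longest and the 5 with the largest mean difference (at least 5 windows) on X, 2L, 3L, 3R and 4, and the longest on 2LHet, 3LHet, 3RHet and XHet, while 2R and 2RHet are given as whole sequences. The members and lists were chosen with earlier results of these data known. Tables were handled in pandas 2.3.3 and NumPy 2.4.6 under Python 3.11.15, and figures were drawn in matplotlib 3.10.9.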

Additional observations from a re-analysis of the deposited data

Results flagged for a closer look

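M, the mitochondrial sequence, was left out of the description by sequence because it holds too few windows. Its 8 tested windows were among those fitted. It carried reads above the 3 that a count of 0 allows. Its 2 windows that do not overlap held 93 reads in Late S replicate 2 and 22 in Late S replicate 1, against 43 in Mid S replicate 2 and 12 in Mid S replicate 1. Early S held 41 and 30 reads in replicates 1 and 2.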

How the results depend on the processing

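Each recomputed value was judged by a limit set for its kind. Counts and shares were allowed to change by 1.5 times. Named domains and Early S medians were judged by the SD between libraries, and relative medians of sequences by direction alone. Of 1422 values recomputed under alternatives, 1222 stayed within the limit of their kind and 200 did not. Among these were 28 and 54 shares by sequence past 2-fold, higher and lower in Late S, 35 and 38 shares called higher and lower, and 19 values of named domains. The cause of the changes below was not tested, apart from the fewer libraries or windows that an alternative leaves. With libraries centred on their medians, windows at least 2-fold lower in Late S fell in number to 4816 and their domains covered 18282 kb over all sequences. The relative median of 3R was -0.018 after quantile normalization, and with means over windows it was -0.064 on 3R and -0.092 on 3L. With the filter on mean signal at its 10th percentile, 11.9% of scaffold windows were called lower in Late S. Domains from a log2 difference of 0.5 covered 39605 kb higher and 53585 kb lower in Late S, and those from 1.5 covered 13562 kb higher and 5432.5 kb lower, with 331 domains lower. With no gap joined, 1193 domains were lower. At most 1 read or at most 5 reads in place of 3 gave 0 and 6 windows nearly empty in Late S, and at most 5 reads gave 8 nearly empty in Mid S. With no minimum fold, the Early S median was 2.21 RPKM in windows called higher and 12.3 RPKM in windows called lower in Late S. The replicate block gave 14785 windows called higher and 21147 lower in Late S, 8197 and 8304 of them past 2-fold. It moved no count over all sequences by over 1.5 times, but it moved shares that rest on a few windows, on chromosome 4 to 0.389% higher and on 3RHet to 0.780% called lower and 0.334% past 2-fold lower.

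When each library was left out in turn, windows called ranged from 9290 to 13932 higher and 13489 to 20079 lower in Late S, and those past 2-fold from 6631 to 8156 and from 5139 to 10990. On the arms 16.5% to 24.2% of windows were called higher and 27.6% to 40.9% lower. On the scaffolds these ranges were 28.5% to 49.7% and 2.42% to 7.20%. A fraction that loses a library keeps 1, which is then assumed to vary like the other fractions. The depth, 98 to 218 reads in a median window of the compared libraries, limits what can be said of U and 2LHet most.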

Other observations

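On YHet, which comes from the Y chromosome and should be missing from a female line, 35 windows that do not overlap held 1 and 3 reads in Late S and 2 and 0 reads in Mid S.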
